A study of Mus musculus with 18 samples.

Results

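Genes for antigen presentation by MHC class II were followed in RNA of mouse bone marrow-derived macrophages (BMMs). The 8 genes H2-Aa, H2-Ab1, H2-Eb1, H2-DMa, H2-DMb1, H2-DMb2, Cd74 and Ciita were chosen by symbol for what they encode, and all 8 were found among the 38887 genes with a value in each library. MHC class II molecules are heterodimers of an α and a β chain, which display peptides from endocytosed proteins to CD4+ T cells. The mouse I-A molecule is formed by H2-Aa and H2-Ab1, and H2-Eb1 encodes the β chain of I-E, whose α chain is not made in C57BL/6 mice. The invariant chain Cd74 occupies the groove of new dimers and guides them to endosomes, where H2-DM, a dimer of H2-DMa with a DMb chain, exchanges its remnant CLIP for peptides. Transcription of these genes depends on the coactivator Ciita. It does not bind DNA itself but joins the factors that sit on the X and Y boxes of class II promoters. Macrophages carry little class II unless interferon-γ or other activating signals raise Ciita.

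BMMs of WT, GILZ KO and GILZ TG mice were compared at rest and after stimulation with 100 ng/ml LPS (lipopolysaccharide of Gram-negative bacteria) for 4 h. There were 3 preparations per genotype and treatment, 18 libraries in all. GILZ, encoded by Tsc22d3, is a leucine zipper protein induced by glucocorticoids. The comparisons address what its loss or excess does to macrophages at rest and upon activation.

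All mice were female C57BL/6J aged 10 to 23 weeks, and all 3 genotypes carried Cre in the endogenous Lyz2 gene, which is active in myeloid cells. WT mice had the Lyz2-Cre allele only. GILZ KO mice also had loxP sites around Gilz exon 6, and GILZ TG mice a Gilz-1 cDNA in the ROSA26 locus behind a stop cassette that Cre removes. Cells were differentiated for 6 days with 50 ng/ml M-CSF, and the labels give untreated and LPS-treated cells without any other agent.

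Tsc22d3 followed the labels in untreated cells, with 16.5 ± 2.08, 2.34 ± 0.461 and 155.9 ± 3.93 TPM in WT, GILZ KO and GILZ TG, respectively (SD, n = 3). TPM corrects the reads of a gene for its transcript length and for the depth of the library. After LPS the values were 5.15 ± 0.627, 2.91 ± 0.392 and 131.7 ± 7.64 TPM in the same order. Every GILZ KO library (2.5 to 3.28 TPM) was then below every WT library (4.56 to 5.81 TPM). The log2 fold change of -0.69 (standard error 0.14, unadjusted p = 0.000403 from edgeR) did not pass after adjustment over all genes (adjusted p = 0.15). Lyz2, the locus of the Cre allele, had a mean of 12839.8 TPM in untreated WT but 33.6 TPM in GILZ KO and, for GILZ TG, 33.0 TPM, so the genotypes also differed at this gene. Whether WT carried as many copies of the Cre allele as the other groups was not determined here. Library totals lay between 14583055 and 38557029 reads on genes, lowest in GILZ KO after LPS. Macrophage markers were abundant in every library, with a sum of 7 genes between 3825 and 5021 TPM.

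GILZ TG replicates 1 and 2 stood apart. The summed level of 5 stromal markers was 97.9 and 112 TPM in untreated cells of these 2 preparations, against 9.51 TPM in GILZ TG replicate 3. A sum of 7 B-cell markers reached 91.5 and 153 TPM there and 35.8 TPM in replicate 3, while WT and GILZ KO lay between 30.9 and 35.4 TPM. It came mostly from Ighm, Igkc and Cd79b. The B-cell genes Cd79a and Ms4a1 were at or near 0 in all 18 libraries, with at most 0.13 and 0.08 TPM. A sum of 5 genes of the neutrophil lineage was 37.4 and 95.2 TPM in untreated cells of replicates 1 and 2 and 13.1 TPM in replicate 3. Dendritic cell markers summed to 0.19 to 1.44 TPM over 7 genes and T cell markers to at most 0.31 TPM over 3. Both the H2 chains and these markers are therefore given by library, and comparisons with GILZ TG were repeated with replicate 3 alone. In bulk RNA, fewer cells of a type and less RNA per cell cannot be told apart.

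The 6 H2 genes lie within 197.1 kb on chromosome 17 of GRCm38. H2-DMa spans chr17:34119541-34139101, H2-DMb2 chr17:34143307-34151555, H2-DMb1 chr17:34153072-34160230, H2-Ab1 chr17:34257689-34269419 and H2-Eb1 chr17:34305867-34316674, all on the plus strand. H2-Aa lies on the minus strand at chr17:34282744-34287823. Ciita lies on the plus strand at chr16:10480059-10528418, and Cd74 on another chromosome. H2-DMb1 begins 1.52 kb after the end of H2-DMb2 and resembles it. They share 254 windows of 75 bases, the read length, which are 15.8% of the windows of H2-DMb1 and 14.6% of those of H2-DMb2. The counting split reads between them, so the value of the lower one, H2-DMb2, is uncertain.

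Class II promoters are the place where Ciita acts, so those on hand are shown for the X and Y boxes. RefSeq promoter windows of the GRCm38.p6 assembly, from 250 bases before to 50 after the annotated start, were matched by symbol for H2-Aa, H2-Eb1, H2-DMa, H2-DMb1 and H2-DMb2, but not for H2-Ab1, Cd74 and Ciita. They were searched on both strands for the X box core ACNGATG, the element of the RFX factors, and the Y box core GATTGG, an inverted CCAAT motif read by NF-Y. The motifs do not overlap in the pairs found. Positions below count from 0 at the annotated start. Each line gives 100 bases on the gene's own strand, 5′ to 3′, and capitals mark the X box core and the Y box core.
H2-DMb2: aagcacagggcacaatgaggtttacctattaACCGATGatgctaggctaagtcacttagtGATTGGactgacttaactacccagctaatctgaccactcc
H2-DMb1: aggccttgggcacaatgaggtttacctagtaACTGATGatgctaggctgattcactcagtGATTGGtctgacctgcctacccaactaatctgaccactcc
H2-Eb1: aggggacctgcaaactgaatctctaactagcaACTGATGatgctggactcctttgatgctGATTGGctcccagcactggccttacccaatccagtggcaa
H2-Aa: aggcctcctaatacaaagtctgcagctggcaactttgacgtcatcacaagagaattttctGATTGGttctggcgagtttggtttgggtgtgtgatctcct

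The windows are chr17:34145098-34145197 for H2-DMb2, chr17:34153069-34153168 for H2-DMb1 and chr17:34305747-34305846 for H2-Eb1, on the plus strand, and chr17:34287833-34287932 for H2-Aa, on the minus strand. In 3 of the 5 genes the X box core was followed by the Y box core on the same strand, with 22 bases between them in H2-DMb1 and H2-DMb2 and 21 in H2-Eb1. The Y box core began at -62, -91 and -60, respectively. The promoters of H2-DMb1 and H2-DMb2 are visibly alike over the whole stretch, while H2-Eb1 shares with them little but the motifs and the bases next to them. H2-Aa held the Y box core, but the string ACNGATG matched on the opposite strand only. H2-DMa had a Y box core in 1 of its 2 windows and no match to ACNGATG. The search finds exact matches only, so an X box with other letters is missed, and these genes may hold one. Among all 32851 windows of this length, 9.85% held the X box core, 16.1% the Y box core and 35, or 0.107%, both with a gap of 10 to 40 bases. These matches are a description of letters and say nothing about binding.

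The levels of the class II genes differed widely within each group. Cd74 was the highest in every library, between 35.3 and 139.09 TPM with a median of 86.575, and in untreated WT it exceeded 80.9% of all genes above 0. H2-DMb1 ranged from 11.22 to 22.87 TPM. In untreated WT the means of the next 4 genes were 9.03 ± 1.83 TPM for H2-DMa, 8.61 ± 3.59 for H2-Aa, 6.59 ± 2.63 for H2-Ab1 and 5.81 ± 2.85 for H2-Eb1 (SD, n = 3). These neighbours did not differ beyond their spread, and the I-A and I-E chains stood close to the middle of the expressed genes. H2-DMb2 remained between 0.36 and 1.65 TPM. Ciita had the lowest median, 0.18 TPM, with a range of 0.04 to 0.76.

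**Figure D1:**
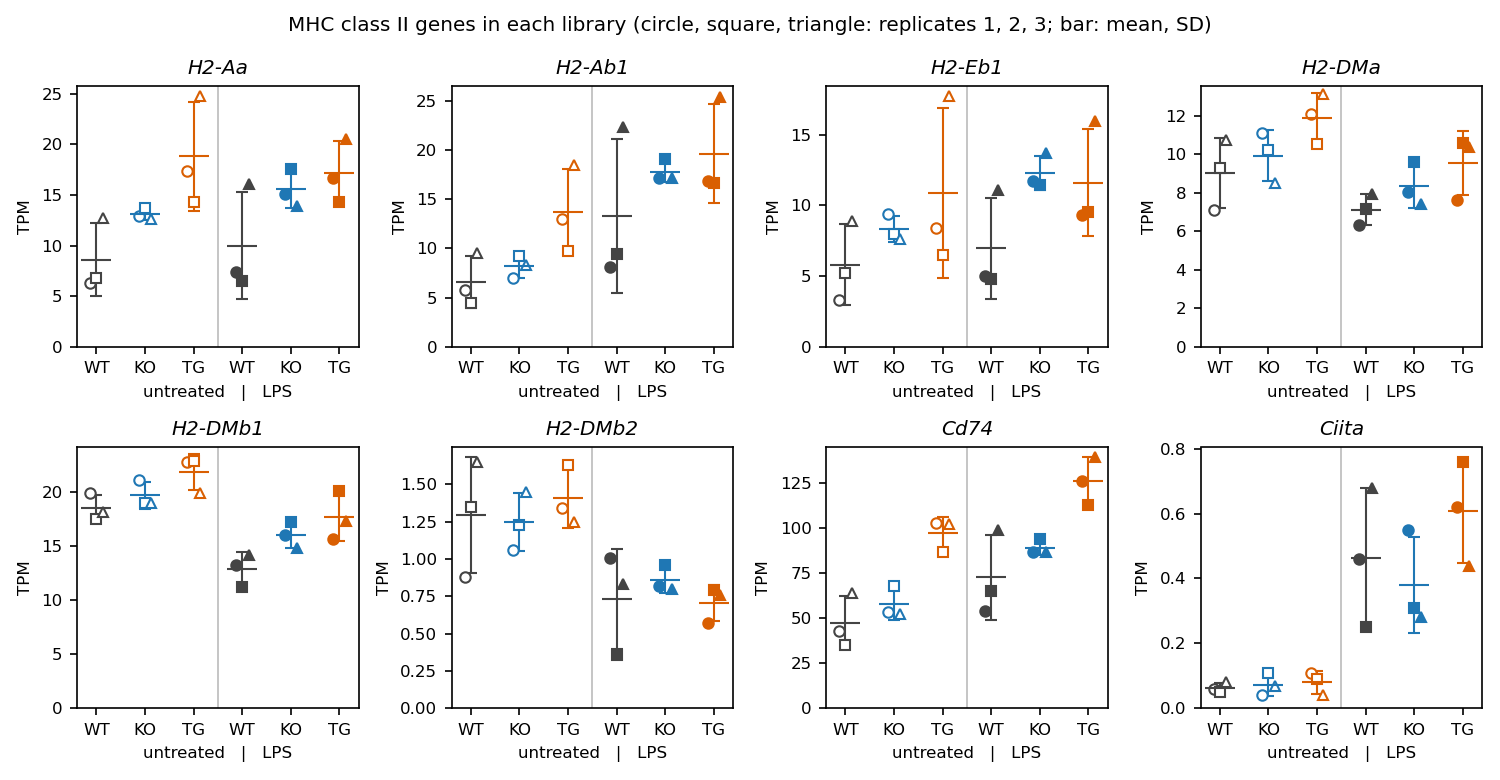
TPM (linear axes from 0, a panel per gene) of the 8 class II genes in each library by genotype and treatment; circles, squares and triangles are replicates 1, 2 and 3, open without treatment and filled after LPS, and bars give mean and SD (n = 3). Cd74 in GILZ TG lies above the other genotypes in both treatments, replicate 3 is the highest point of WT and GILZ TG for the 3 chains, and Ciita steps up after LPS in every genotype.

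The chains of the class II dimer were higher in untreated GILZ TG than in WT on average, but their spread between preparations was large. H2-Aa was 6.26, 6.84 and 12.74 TPM in WT, 12.88, 13.74 and 12.63 TPM in GILZ KO and, for GILZ TG, 17.40, 14.29 and 24.76 TPM (replicates 1 to 3). All 3 GILZ TG libraries lay above all WT libraries, while WT replicate 3 overlapped with GILZ KO. The log2 fold change of GILZ TG against WT was 1.15 (standard error 0.32, adjusted p = 0.15 from edgeR), so it did not pass the threshold of 0.05. H2-Ab1 had the same order, with 5.77, 4.47 and 9.53 TPM in WT, 6.96, 9.23 and 8.31 TPM in GILZ KO and, for GILZ TG, 12.95, 9.72 and 18.44 TPM. Again WT and GILZ TG did not overlap, although WT replicate 3 and GILZ TG replicate 2 were nearly equal. The difference was 1.04 on the log2 scale (0.29, adjusted p = 0.156 from edgeR). H2-Eb1 amounted to 3.30, 5.21 and 8.91 TPM in WT and 8.40, 6.49 and 17.70 TPM in GILZ TG, and here the genotypes overlapped (log2 fold change 0.89, standard error 0.42, adjusted p = 0.382 from edgeR).

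In WT and GILZ TG, replicate 3 was the highest for all 3 chains, without treatment and after LPS. The highest library exceeded the lowest by 2.13-fold for H2-Ab1 in untreated WT, by 2.74-fold in WT after LPS and by 2.73-fold for H2-Eb1 in untreated GILZ TG. GILZ KO libraries were much more alike, with a ratio of 1.09 to 1.33 for these chains. GILZ TG replicate 3 was also the GILZ TG preparation with the lowest sums of stromal and B-cell markers, whose part in the chain levels was not tested. With GILZ TG replicate 3 alone, the log2 fold changes against untreated WT were 1.54 for H2-Aa, 1.44 for H2-Ab1 and 1.61 for H2-Eb1. A single library has no spread of its own, so these are values without a test.

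Cd74 showed the clearest separation between genotypes. In untreated cells it was 43.07, 35.30 and 63.82 TPM in WT, 53.16, 67.83 and 52.15 TPM in GILZ KO and, for GILZ TG, 102.40, 86.71 and 101.84 TPM. GILZ TG lay above both other genotypes in every library, and WT and GILZ KO overlapped. GILZ TG exceeded WT by a log2 fold change of 1.02 (standard error 0.20), or 2.03-fold, with an adjusted p-value of 0.0647 from edgeR. For GILZ KO against GILZ TG it was -0.79 (0.20) with 0.0549. Both missed the threshold. DESeq2 on the same counts called them, with adjusted p-values of 6.64e-05 and 0.00238. In GILZ TG replicate 3 alone, the log2 fold change against WT was 1.10.

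The peptide exchange factor H2-DM differed little between untreated genotypes. H2-DMa was 7.09, 9.28 and 10.73 TPM in WT, 11.09, 10.20 and 8.50 TPM in GILZ KO and, for GILZ TG, 12.07, 10.52 and 13.11 TPM, with overlap throughout. H2-DMb1 was the steadiest, with 19.92, 17.54 and 18.18 TPM in WT, 21.13, 18.97 and 19.02 TPM in GILZ KO and, for GILZ TG, 22.78, 22.87 and 19.95 TPM. GILZ TG lay just above WT in every library. The log2 fold changes of GILZ TG against WT were 0.30 (0.15, adjusted p = 0.402) for H2-DMa and 0.23 (0.08, adjusted p = 0.247) for H2-DMb1 from edgeR. H2-DMb2 had group means of 1.25 to 1.41 TPM and Ciita of 0.0633 to 0.08 TPM without treatment. The latter rests on 3 to 8 reads per library and was left out between untreated genotypes by the filter on low counts. With all 18 libraries in one fit, GILZ TG differed from WT by 0.41 (adjusted p = 0.842 from edgeR).

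Without treatment, edgeR called 0 of 7 class II genes tested in GILZ TG against WT, where 0.642% of 12621 genes were called. At an unadjusted p under 0.05 there were 4 (Cd74, H2-Aa, H2-Ab1 and H2-DMb1), against 14.1% of all genes, and the same 4 did not overlap in TPM and were higher in GILZ TG, which was so for 9.75% of all genes. DESeq2 called 3, Cd74, H2-Aa (adjusted p = 0.0173) and H2-Ab1 (adjusted p = 0.0323), with 2.47% of all genes, and limma on log2 TPM 0. The median log2 fold change was 0.89 over the 7 genes and 0.00 over all genes, and 7 of 7 values were above 0. This median was 0.37 without GILZ TG replicate 3 and 1.33 without WT replicate 3. Calls depended on 1 library: without WT replicate 3, edgeR called Cd74 (log2 fold change 1.33, adjusted p = 0.0043), H2-Aa (1.68, adjusted p = 0.0158) and H2-Ab1 (1.44, adjusted p = 0.0405). Without GILZ TG replicate 3 it called Cd74 (0.98, adjusted p = 0.0344).

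GILZ KO against WT gave 0 of 7 calls by edgeR, DESeq2 and limma, with 0.0951% of all genes called by edgeR, and 0 at an unadjusted p under 0.05, with 9.60% of all genes. The largest value was that of H2-Aa, 0.57 (0.32, adjusted p = 0.594 from edgeR), and the median over the 7 genes was 0.24. GILZ KO against GILZ TG also gave 0 of 7 by edgeR, where 4.94% of all genes were called, and 2 at an unadjusted p under 0.05 (Cd74 and H2-Ab1, 24.6% of all genes). DESeq2 called Cd74 only (9.65% of all genes) and limma 0. H2-Aa, H2-Ab1 and Cd74 were lower in every GILZ KO library than in any GILZ TG library, a separation in this direction that 10.1% of all genes had. The 3 genotype comparisons of a treatment share libraries and are not independent of each other.

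**Figure D2:**
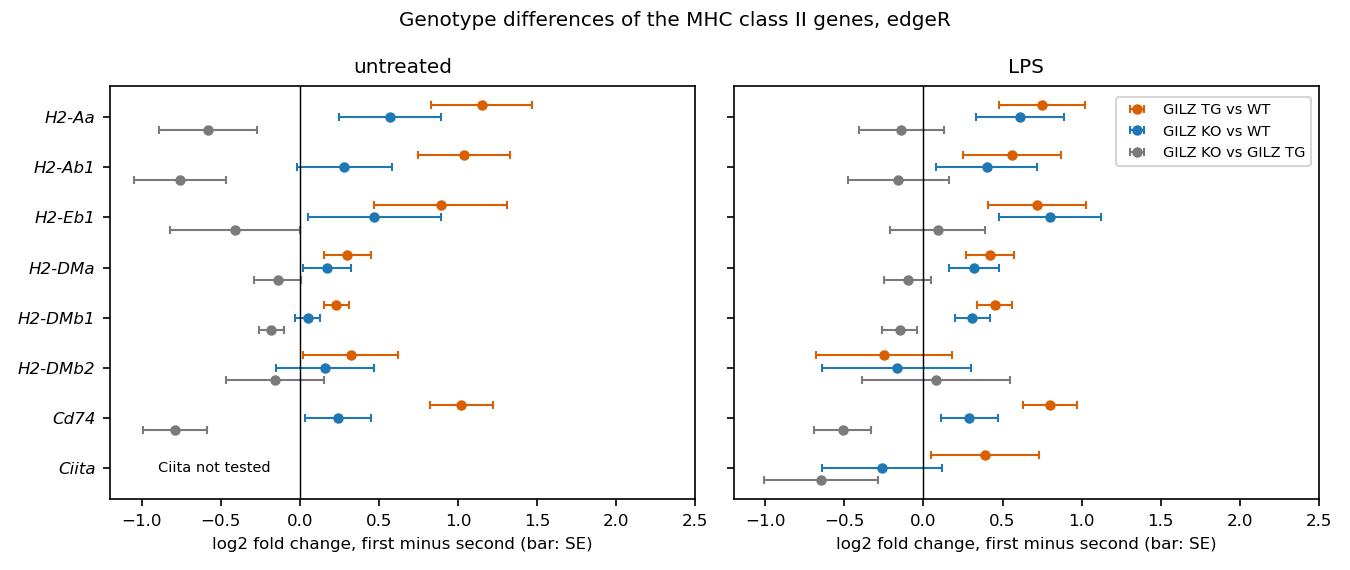
Log2 fold changes (edgeR) of the class II genes in GILZ KO against WT, GILZ TG against WT and GILZ KO against GILZ TG, without treatment and after LPS; bars are 1 standard error. Values for GILZ TG against WT lie mostly above 0, with Cd74 at 1.02 and 0.80, and no gene passed an adjusted p of 0.05.

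After LPS the genotypes kept a similar order. Cd74 was 53.96, 64.72 and 98.72 TPM in WT, 86.67, 93.95 and 86.48 TPM in GILZ KO and, for GILZ TG, 125.62, 112.64 and 139.09 TPM. GILZ TG again lay above all other libraries, and WT replicate 3 was above GILZ KO. The log2 fold change against WT was 0.80 (0.17), or 1.74-fold, with an adjusted p-value of 0.0832 from edgeR and 0.000848 from DESeq2. GILZ KO against GILZ TG gave -0.51 (0.18, adjusted p = 0.142 from edgeR). With GILZ TG replicate 3 alone, Cd74 differed from WT by 0.98.

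H2-Aa after LPS was 7.43, 6.53 and 16.04 TPM in WT, 15.12, 17.58 and 13.95 TPM in GILZ KO and, for GILZ TG, 16.68, 14.30 and 20.57 TPM. H2-Ab1 was 8.16, 9.48 and 22.33 TPM in WT, 17.14, 19.06 and 17.19 TPM in GILZ KO and, for GILZ TG, 16.84, 16.63 and 25.43 TPM. For both, WT replicates 1 and 2 were low and WT replicate 3 was among the other genotypes. The log2 fold changes of GILZ TG against WT were 0.75 (0.27, adjusted p = 0.216) and 0.56 (0.31, adjusted p = 0.436) from edgeR. H2-Eb1 was 5.02, 4.79 and 11.08 TPM in WT and 11.71, 11.44 and 13.69 TPM in GILZ KO, which did not overlap, but the difference of 0.80 (0.32) did not pass (adjusted p = 0.452 from edgeR). H2-Eb1 in GILZ TG was 9.29, 9.55 and 15.96 TPM.

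After LPS the H2-DM genes differed less from WT than H2-Aa, H2-Ab1 and H2-Eb1 did. For H2-DMa and H2-DMb1 the fitted differences from WT were larger than without treatment, but this increase was not called in the test of LPS responses. Against WT, the response of H2-DMa differed by 0.13 (standard error 0.22) in GILZ KO and 0.11 (0.22) in GILZ TG. For H2-DMb1 it was 0.23 (0.14) and 0.22 (0.14). H2-DMb1 was 13.31, 11.22 and 14.23 TPM in WT, 16.02, 17.29 and 14.87 TPM in GILZ KO and, for GILZ TG, 15.68, 20.09 and 17.35 TPM. WT was the lowest group, without overlap with either of the others. Against WT, H2-DMb1 differed by 0.45 (0.11, adjusted p = 0.109 from edgeR) in GILZ TG and by 0.31 (0.11, adjusted p = 0.427 from edgeR) in GILZ KO. H2-DMa had means of 7.13 ± 0.815 TPM in WT, 8.35 ± 1.13 in GILZ KO and 9.54 ± 1.67 in GILZ TG, and H2-DMb2 of 0.733 ± 0.336, 0.86 ± 0.0872 and 0.707 ± 0.119 (SD, n = 3).

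Of 8 class II genes tested after LPS, edgeR called 0 when GILZ TG was set against WT (0.460% of 12164 genes), 0 for GILZ KO against WT (0.0822%) and 0 for GILZ KO against GILZ TG (2.60%), and limma 0 in each. At an unadjusted p under 0.05 there were 5 for GILZ TG against WT (15.2% of all genes), 2 for GILZ KO against WT (9.63%) and 1 between GILZ TG and GILZ KO (19.1%). DESeq2 called Cd74 in GILZ TG against WT (2.25% of all genes) and 0 in the other two. Without overlap in TPM, H2-DMb1 and Cd74 were higher in GILZ TG than in WT (7.78% of all genes) and H2-Eb1 and H2-DMb1 higher in GILZ KO than in WT (9.62%). The medians over the class II genes were 0.51, 0.31 and -0.14, respectively, against 0.01, 0.00 and 0.00 over all genes. As before LPS, leaving out 1 library gave calls. Without WT replicate 3, edgeR called Cd74 (1.06, adjusted p = 0.00799) and H2-Aa (1.26, adjusted p = 0.0199) in GILZ TG and H2-Aa in GILZ KO (1.12, adjusted p = 0.0498). Without GILZ TG replicate 3 it called Cd74 (0.70, adjusted p = 0.039) and H2-DMb1 (0.45, adjusted p = 0.0475).

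After LPS the class II genes differed widely in their log2 fold changes, and in the fits on counts that of Ciita was the largest in every genotype. On log2(TPM + 1), which compresses low values, Ciita gave 0.45 in WT and H2-Ab1 0.84. Untreated cells had 5, 4 and 6 reads of Ciita in WT, 3, 7 and 4 in GILZ KO and 7, 8 and 3 in GILZ TG. After LPS there were 33, 17 and 52 reads in WT, 36, 13 and 13 in GILZ KO and 71, 73 and 26 in GILZ TG. Every LPS library was above every untreated one. Scaled to the library total (CPM), this was 0.179 (exact Poisson 95% interval 0.0999 to 0.294, counting error only) in untreated WT and 1.35 (1.1 to 1.64) after LPS. In GILZ KO it was 0.205 (0.112 to 0.344) and 1.18 (0.902 to 1.51), and in GILZ TG 0.246 (0.146 to 0.388) and 1.83 (1.57 to 2.13).

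The fitted log2 fold change of Ciita was 3.52 (standard error 0.45, adjusted p = 2.13e-06) in WT, 3.04 (0.47, adjusted p = 1.94e-05) in GILZ KO and 3.48 (0.43, adjusted p = 1.57e-06) in GILZ TG, from edgeR. Ciita rose in all 3 genotypes on every scaling used. Even so, its mean stayed at 0.38 to 0.607 TPM after LPS. Between genotypes after LPS it did not pass, with 0.39 (0.34, adjusted p = 0.639) in GILZ TG and -0.26 (0.38, adjusted p = 0.865) in GILZ KO against WT from edgeR.

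The scaling matters for the other genes. Expression after LPS is given relative to the median gene by TMM, the normalization of edgeR, but relative to the library total the median gene itself had a log2 change of -0.70 in WT, -0.66 in GILZ KO and -0.69 in GILZ TG. On log2(TPM + 1) this median was -0.51, -0.52 and -0.51. Values below are therefore given on both scales where they differ in sign or call.

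H2-Ab1 and Cd74 rose with LPS in WT and GILZ KO on both scales. H2-Ab1 gave 1.66 (0.35, adjusted p = 0.000481) in WT, 1.75 (0.36, adjusted p = 0.000319) in GILZ KO and 1.18 (0.33, adjusted p = 0.00466) in GILZ TG from edgeR. Relative to library totals the values were 0.99 (adjusted p = 0.0135), 1.11 (adjusted p = 0.00717) and 0.50 (adjusted p = 0.166) from edgeR, so that of GILZ TG was no longer called. Without WT LPS replicate 3, the highest of its group, the TMM value in WT was 1.09. Cd74 gave 1.24 (0.22, adjusted p = 6.66e-05), 1.27 (0.22, adjusted p = 5.91e-05) and 1.01 (0.21, adjusted p = 0.000364) in the same order from edgeR, and 0.57 (adjusted p = 0.0186), 0.63 (adjusted p = 0.0117) and 0.34 (adjusted p = 0.137) relative to library totals.

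H2-Aa, the partner chain of H2-Ab1, changed less. It gave 0.86 (0.34, adjusted p = 0.0331) in WT, 0.87 (0.33, adjusted p = 0.0284) in GILZ KO and 0.45 (0.32, adjusted p = 0.217) in GILZ TG from edgeR. In WT the call was lost without untreated replicate 1 (0.57, adjusted p = 0.161), untreated replicate 2 (0.65, adjusted p = 0.138) or LPS replicate 3 (0.35, adjusted p = 0.368). In GILZ KO it was lost in 5 of 6 such omissions, with adjusted p-values of 0.0548 to 0.0857 from edgeR. Relative to library totals it did not pass in any genotype, and in GILZ TG the sign turned (-0.23, adjusted p = 0.51 from edgeR).

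H2-Eb1 was called in GILZ KO (1.19, standard error 0.41, adjusted p = 0.0166) and not in the other genotypes, with 0.89 (0.42, adjusted p = 0.0698) in WT and 0.71 (0.39, adjusted p = 0.12) in GILZ TG from edgeR. The GILZ KO call was lost without untreated replicate 3 (1.10, adjusted p = 0.0525) or LPS replicate 3 (1.09, adjusted p = 0.0515). In WT a call was gained without untreated replicate 3 (1.32, adjusted p = 0.0148), LPS replicate 1 (1.08, adjusted p = 0.0496) or LPS replicate 2 (1.09, adjusted p = 0.0479) from edgeR, and by DESeq2 (0.90, adjusted p = 0.0398), while without LPS replicate 3 it was 0.40 (adjusted p = 0.45 from edgeR). In GILZ TG, where same-numbered untreated and LPS libraries deviated together, a fit with the replicate as a block gave H2-Aa 0.47 (0.10, adjusted p = 0.000647) and H2-Eb1 0.80 (0.15, adjusted p = 0.000457) from edgeR. Without GILZ TG untreated replicate 3, H2-Eb1 was 1.26 (adjusted p = 0.00882 from edgeR). In WT the fit with the replicate block also called H2-Eb1.

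**Figure D3:**
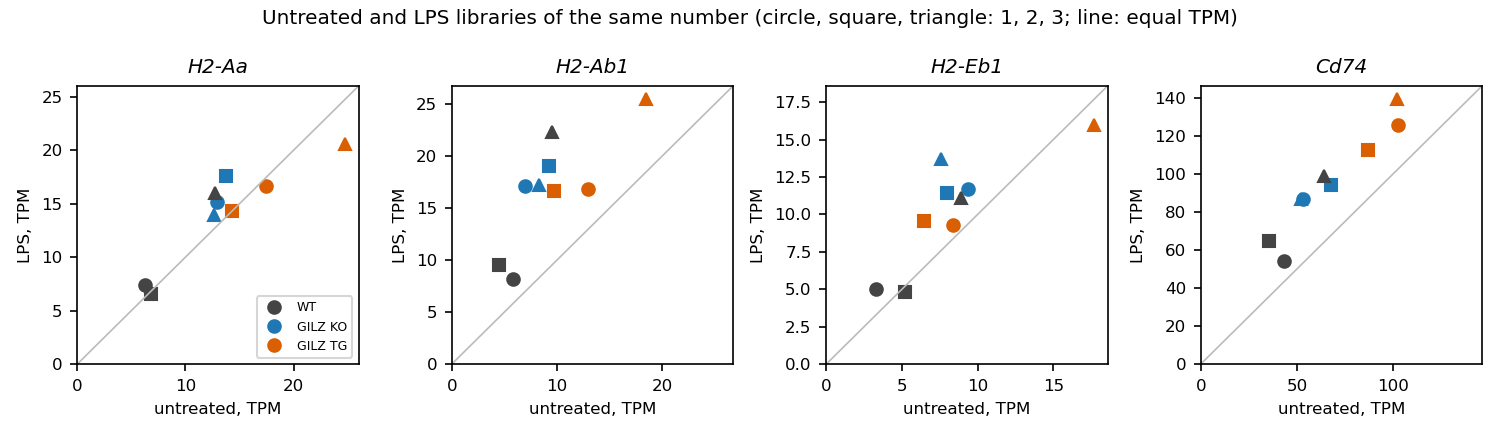
TPM after LPS (vertical axis) against TPM without treatment (horizontal axis) for libraries of the same number, for H2-Aa, H2-Ab1, H2-Eb1 and Cd74; colours are genotypes, circles, squares and triangles are replicates 1, 2 and 3, and the line marks equal TPM. All points of H2-Ab1 and Cd74 lie above the line, those of H2-Aa lie around it, and replicate 3 of WT and of GILZ TG is at the upper right of its genotype for H2-Aa, H2-Ab1 and H2-Eb1.

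The H2-DM genes moved with the scaling. In GILZ KO, H2-DMa was 0.46 (0.16, adjusted p = 0.0163) and H2-DMb1 0.34 (0.10, adjusted p = 0.00662) relative to the median gene, and in GILZ TG they were 0.45 (0.15, adjusted p = 0.0162) and 0.32 (0.10, adjusted p = 0.00666) from edgeR. In WT they did not pass, with 0.34 (0.16, adjusted p = 0.0695) and 0.11 (0.10, adjusted p = 0.357). With the replicate block, H2-DMa was called in WT by edgeR and H2-DMb1 was not. Relative to library totals H2-DMb1 had the opposite sign and passed in all genotypes, with -0.57 (adjusted p = 5.46e-05) in WT, -0.30 (adjusted p = 0.0131) in GILZ KO and -0.35 (adjusted p = 0.00386) in GILZ TG from edgeR. H2-DMa then did not pass, and H2-DMb2 was -1.01 (adjusted p = 0.0171) in GILZ TG. The H2-DMa call on TMM was lost without untreated replicate 3 (0.38, adjusted p = 0.0702) or LPS replicate 1 (0.42, adjusted p = 0.0617) in GILZ KO, and without untreated replicate 2 (0.31, adjusted p = 0.103) or LPS replicate 3 (0.36, adjusted p = 0.0683) in GILZ TG. In GILZ KO and GILZ TG, H2-DMb1 thus passed the test in opposite directions on the 2 scales, and no direction can be given for it without naming the scale.

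**Figure D4:**
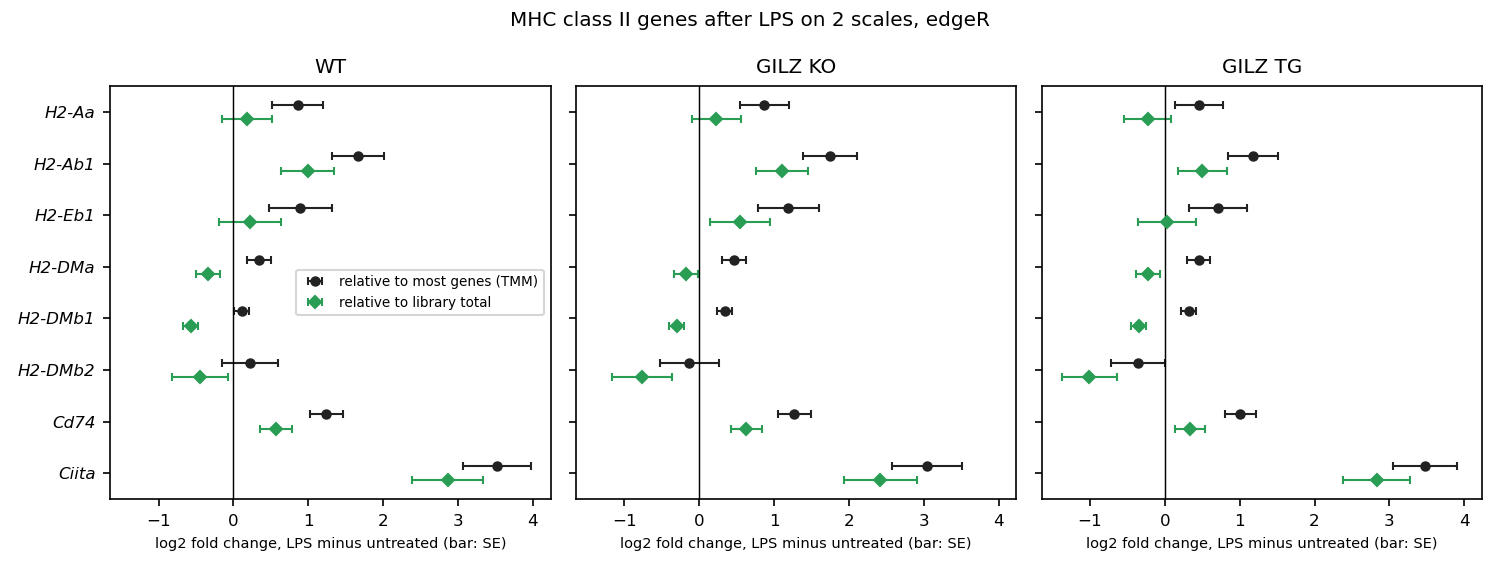
Log2 fold changes of the class II genes after LPS in WT, GILZ KO and GILZ TG (edgeR), relative to most genes (TMM) and relative to library totals; bars are 1 standard error. Ciita lies near 3 on both scales, Cd74 and H2-Ab1 are above 0 on both, and H2-DMb1 changes sign.

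In all, 4 of 8 class II genes were called after LPS in WT, 7 in GILZ KO and 5 in GILZ TG, each of them higher. Of 13169 genes, 68.6%, 68.5% and 68.7% were called in either direction and 33.5%, 33.2% and 33.6% as higher. The median over the class II genes was 0.87, 1.03 and 0.58, against -0.02 over all genes. Relative to library totals there were 3 higher and 1 lower in WT, 3 higher and 1 lower in GILZ KO and 1 higher and 2 lower in GILZ TG, with 84.2%, 82.7% and 83.8% of all genes called. On TMM, the share of class II genes called in either direction was below that of all genes in WT and GILZ TG and above it in GILZ KO. Relative to library totals it was below that of all genes in every genotype.

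The different numbers of calls do not show a different response. In the test of the difference between responses, edgeR called 0 of 8 class II genes in GILZ KO against WT (0.0152% of all genes), 0 for GILZ TG against WT (0.00759%) and 0 between GILZ TG and GILZ KO (0.121%). At an unadjusted p under 0.05 there were 0 in each, with 6.36%, 3.09% and 9.92% of all genes, and DESeq2 and limma also gave 0. The response of H2-Ab1 was lower by a log2 difference of -0.48 (0.48) in GILZ TG than in WT, that of H2-Aa by -0.41 (0.46) and that of Cd74 by -0.23 (0.30). None of the 3 was larger than its standard error. Without WT LPS replicate 3, 7 of 8 such differences were above 0, with a median of 0.17 in place of -0.20. These fits had no replicate block. With it, H2-Ab1 and H2-Aa reached an unadjusted p under 0.05 in GILZ TG against WT (-0.41, adjusted p = 0.898, and -0.37, adjusted p = 0.898, from edgeR). The same genes did so between GILZ KO and GILZ TG (0.57, adjusted p = 0.097, and 0.39, adjusted p = 0.206, from edgeR), and again none was called.

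Within a library, the ratio of 2 genes does not depend on the scaling. The ratio of H2-Aa to H2-Ab1, the chains of one dimer, was 1.08 to 1.85 in the 9 untreated libraries and 0.689 to 0.99 in the 9 LPS libraries, without overlap. Its mean was 1.32 ± 0.22 in WT, 1.62 ± 0.2 in GILZ KO and 1.39 ± 0.073 in GILZ TG without treatment, and 0.773 ± 0.12, 0.872 ± 0.056 and 0.886 ± 0.094 after LPS (SD, n = 3). The log2 ratio changed by -0.77 on average (p = 0.00025, adjusted p = 0.00125, exact two-sided permutation test within genotypes), the smallest p that the 8000 regroupings can give. The regroupings, used also for the ratios below, took untreated and LPS libraries as unpaired. Same-numbered libraries may share a preparation, so these p-values are approximate. In every genotype the LPS libraries lay below the untreated ones. The ratio shows that the chains changed unequally, not which of them changed.

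The ratio of H2-Eb1 to H2-Ab1 changed by -0.53 on the log2 scale (adjusted p = 0.00167, exact permutation test), that of Cd74 to H2-Ab1 by -0.33 (adjusted p = 0.0134, exact permutation test) and that of Cd74 to H2-Aa by 0.44 (adjusted p = 0.00167, exact permutation test). Thus H2-Ab1 gained on both other chains and on the invariant chain. The ratio of H2-DMb1 to H2-DMa changed by -0.08 (p = 0.495, exact permutation test). These 5 ratios were chosen with the values known, and p-values were adjusted over the 5.

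**Figure D5:**
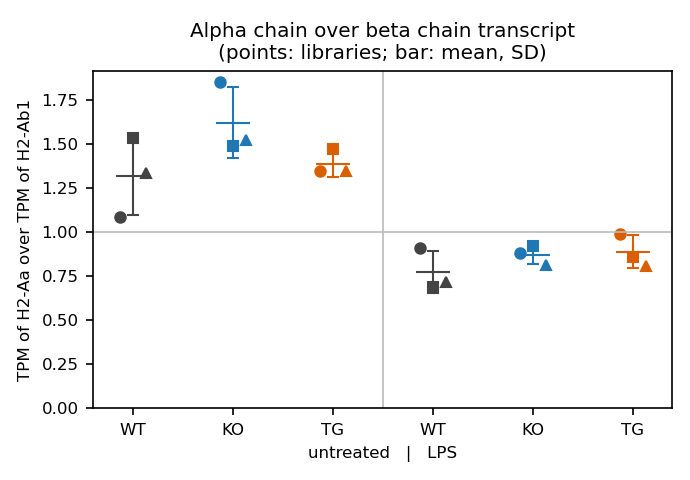
Ratio of H2-Aa to H2-Ab1 TPM in each library by genotype and treatment; points are libraries and bars give mean and SD (n = 3). All untreated libraries lie at 1.08 or above and all LPS libraries at 0.99 or below.

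Beyond the group means, most class II genes deviated together between preparations. The deviations of each library from its group mean on the log2 scale had a Pearson r of 0.92 between H2-Aa and H2-Ab1, 0.92 between H2-Ab1 and Cd74, 0.89 between H2-Aa and H2-Eb1 and 0.82 between H2-Eb1 and H2-DMa, over 18 libraries. H2-DMb1 did not go along (0.17 with H2-Ab1), nor did H2-DMb2 (-0.10), and Ciita had 0.18 with H2-Ab1, 0.21 with H2-Aa and 0.32 with Cd74. Its values with H2-DMb1 and H2-DMb2 were 0.34 and 0.51. Ciita counts were low, and some libraries may come from the same preparation, so these values are a description.

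Among 11510 genes, the 5 most like H2-Ab1 were Pld4 (r = 0.94), Arhgap1 (0.92), Ceacam1 (0.92), Metrnl (0.92) and H2-Aa (0.92). Cd74 was at rank 7, H2-Eb1 at 43 and H2-DMa at 144. Those most like Ciita were Tbc1d10a (0.86), Irf2bp1 (0.85), Rps19-ps3 (0.84), Med25 (0.83) and Klhl36 (0.83). None of these was among the 5 when group means were kept, where Cd74 (0.97) and Tnfsf9 (0.94) led for H2-Ab1 and Prdm9 and Casp12 (0.98 each) for Ciita.

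The surrounding pathway was examined with 38 genes in 7 lists, of which 31 were tested without treatment and 32 after LPS. None was called against WT in either genotype or treatment by edgeR, while 4 in GILZ KO and 8 in GILZ TG without treatment and 2 and 9 after LPS had an unadjusted p under 0.05. Among all genes this was so for 9.60%, 14.1%, 9.63% and 15.2% in the same order. In GILZ KO against untreated GILZ TG, 1 was higher and 2 lower, where 4.94% of all genes were called. March8, a ubiquitin ligase that removes class II from the surface, was 45.33, 47.39 and 46.91 TPM in GILZ KO and, for GILZ TG, 38.50, 34.42 and 38.08 TPM (log2 fold change 0.29, standard error 0.05, adjusted p = 0.0188 from edgeR). The cathepsin inhibitor Cst3 was lower in GILZ KO (-0.27, standard error 0.05, adjusted p = 0.025 from edgeR), as was the protease Ctsd (-0.19, standard error 0.04, adjusted p = 0.0346 from edgeR).

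After LPS, Csf2, the cytokine GM-CSF, was 22.22, 15.62 and 16.66 TPM in GILZ KO, 6.57, 10.12 and 7.98 TPM in WT and 3.30, 2.47 and 8.01 TPM in GILZ TG. The order was GILZ KO above WT and WT mostly above GILZ TG, with GILZ TG replicate 3 within WT. In GILZ KO against GILZ TG it differed by 2.05 (0.36, adjusted p = 0.0183 from edgeR). Of 32 pathway genes tested in this comparison 1 was higher and 2 lower, where 2.60% of all genes were called. The transcription factors Irf8 (-0.57, standard error 0.11, adjusted p = 0.0285) and Irf1 (-0.45, standard error 0.09, adjusted p = 0.0323), which act on Ciita promoters, were below GILZ TG in GILZ KO by edgeR. Irf1 was 355.11, 395.73 and 357.06 TPM in GILZ KO, 426.15, 411.28 and 363.78 TPM in WT and 526.67, 532.40 and 453.87 TPM in GILZ TG, without overlap between the last and the others.

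With GILZ TG replicate 3 alone, the differences between GILZ KO and GILZ TG were 0.20 for March8, -0.22 for Cst3 and -0.19 for Ctsd without treatment and 1.14 for Csf2, -0.46 for Irf8 and -0.33 for Irf1 after LPS. All kept their sign, and that of Csf2 was the one with the largest drop. GILZ TG replicates 1 and 2 carried the stromal and B-cell transcripts, whose part in these differences was not tested.

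After LPS, 22 pathway genes were higher and 5 lower of 33 tested in WT by edgeR, 21 and 7 in GILZ KO and 21 and 5 in GILZ TG, where 68.6%, 68.5% and 68.7% of all genes were called and 33.5%, 33.2% and 33.6% were higher. The interferon-γ route to Ciita had 6 of 7 tested genes higher in WT and 4 relative to library totals, with 1 lower on either scale. The receptor chain Ifngr1 fell from a mean of 112 TPM in untreated WT to 46.2 TPM after LPS. The largest change was that of Socs1, an inhibitor of JAK kinases (6.69, standard error 0.11, adjusted p = 2.86e-17 from edgeR), followed by Irf1 (4.40, standard error 0.08, adjusted p = 6.09e-17 from edgeR). Ifng itself was at 0 in most groups. The other regulators of Ciita had 6 of 6 higher and 5 relative to library totals, and the costimulatory genes 3 of 3 and 2, with Cd40 at 6.36 (0.14, adjusted p = 2.59e-16 from edgeR). Of the factors that assemble on class II promoters, 1 of 7 was higher, Rfx5 (1.47, standard error 0.09, adjusted p = 2.40e-10 from edgeR), and 3 were lower, or 6 relative to library totals. Of the 2 genes for turnover at the surface 1 was higher, the ubiquitin ligase March1 (2.95, standard error 0.14, adjusted p = 7.20e-12 from edgeR), and March8 was lower (-0.17, standard error 0.06, adjusted p = 0.0117 from edgeR), with the same counts relative to library totals. The endosomal processing genes had 4 of 7 higher relative to the median gene but 6 of 7 lower relative to library totals. Of the genes related to class II, H2-Ob, the β chain of the H2-DM inhibitor H2-O, was the one tested (2.67, standard error 0.88, adjusted p = 0.0125 from edgeR). It was near 0 and overlapped, with 0.15, 0.02 and 0.05 TPM in untreated WT and 0.06, 0.45 and 0.48 TPM after LPS. On log2 TPM, limma did not call H2-Ob in WT. In GILZ KO and GILZ TG edgeR called it only with the replicate block. In differences of the LPS response between genotypes, 0 of 33 were called by edgeR, with 3, 3 and 5 at an unadjusted p under 0.05 for GILZ KO against WT, GILZ TG against WT and GILZ KO against GILZ TG.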

How the data were processed

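Poly(A) RNA of BMMs was sequenced with a directional kit in single 75 nt reads. The authors mapped the reads to GRCm38, and per library the deposited data give an expected count (estimated reads per gene, not normalized) and the TPM of 38887 genes. The authors' DESeq2 1.40.2 tables hold log2 fold changes and p-values, which were not used except for their pairs of gene IDs and symbols. There were 14 rows without a gene, which were left out.

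Expected counts were rounded, filtered with filterByExpr, normalized with TMM and entered in edgeR's quasi-likelihood test (version 4.0.16, R 4.3.3), with p-values adjusted by Benjamini-Hochberg over all genes with a threshold of 0.05. Genotypes were compared in the 9 libraries of a treatment, with genotype as the only factor. LPS responses and their differences were fitted on all 18 libraries. Log2 fold changes are positive for the group named first. The number of reads per library, 14583055 to 38557029, sets the precision of low genes such as Ciita, and intervals cover counting error only. The test was checked on simulated data. Preparations came from separate mice. An exact permutation test of 3 against 3 cannot go below 0.1, so single genes were not tested that way. In GILZ TG all same-numbered untreated and LPS libraries deviated together (r = 0.245, 0.362 and 0.576), so blocked values are given. In WT only replicate 1 did (r = 0.233, against -0.024 and 0.039 for replicates 2 and 3). In GILZ KO r was -0.042, 0.08 and 0.083, so its libraries did not.

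All 8 genes are named in every comparison. Pathway genes are named if called in a genotype comparison or a response difference, otherwise the one with the largest change after LPS in WT per list. For H2-Ab1 and Ciita the 5 genes most alike were taken, with a mean of at least 1 TPM. The genes, lists, motifs and ratios were chosen with earlier results of these data known. Alternatives were DESeq2 1.42.0, limma 3.58.1 on log2 TPM with 1 or 0.1 added, other size factors, other filters, other sets of libraries, replicate blocks, H2-DMb1 and H2-DMb2 summed, other thresholds and each library left out. Library totals and GILZ TG replicate 3 alone were added after seeing the data. Figures were drawn with matplotlib 3.10.9.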

Additional observations from a re-analysis of the deposited data

How the results depend on the processing

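Counts of called class II genes stayed within 1.5-fold in 212 of 244 alternatives. In the 6 genotype comparisons and the 3 response differences the count to compare with was 0, so a fold limit says little there. In GILZ TG against untreated WT, where 0 were called, all 18 libraries in one fit gave 1, no filter 1, DESeq2 3 and unadjusted p-values 4. Leaving out 1 library gave 0 to 3. In GILZ KO against untreated GILZ TG, all 18 libraries, no filter, only the 6 libraries and DESeq2 gave 1 each in place of 0 and unadjusted p-values 2. After LPS, GILZ TG against WT had 1 with all 18 libraries (H2-DMb1) and 1 without a filter, with DESeq2 or with a replicate block (Cd74). With this block Cd74 was 0.82 (adjusted p = 0.0487 from edgeR). Here the block joined libraries of different genotypes by number alone. Such pairs deviated together (r above 0.1) in 2 of 18 cases, so the blocked value says little. There were 5 with unadjusted p-values and 0 to 2 with 1 library left out. GILZ KO against WT had 2 with unadjusted p-values and 0 to 1 with 1 library left out, and GILZ KO against GILZ TG 1 without a filter, with only the 6 libraries or with unadjusted p-values. The LPS comparison of GILZ KO fell from 7 to 4 with library totals, with limma on either scale and at an adjusted p under 0.01, and had 4 to 6 with 1 library left out. That of GILZ TG fell from 5 to 3 with library totals, limma or GILZ TG replicate 3 alone (a lone library, assumed to vary like the other groups) and had 4 to 6 with 1 library left out, and that of WT ranged from 3 to 6. In the LPS comparisons, a block of same-numbered untreated and LPS libraries within a genotype gave 6, 7 and 7 of 8 in WT, GILZ KO and GILZ TG. The causes were not tested.

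Signs turned in LPS comparisons, given here for limma on log2(TPM + 1), limma on log2(TPM + 0.1) and library totals. In WT the values became -0.29, -0.32 and -0.34 for H2-DMa, -0.49, -0.52 and -0.57 for H2-DMb1 and -0.41, -0.80 and -0.45 for H2-DMb2. In GILZ KO they became -0.22, -0.25 and -0.17 for H2-DMa and -0.28, -0.29 and -0.30 for H2-DMb1. In GILZ TG they became -0.10, -0.11 and -0.23 for H2-Aa, -0.30, -0.33 and -0.23 for H2-DMa and -0.29, -0.31 and -0.35 for H2-DMb1. With 1 library left out, H2-DMb2 ranged from -0.23 (without WT LPS replicate 1) to 0.49 in WT and from -0.40 to 0.07 (without GILZ KO control replicate 2) in GILZ KO. With library totals, the share of calls after LPS that were higher was 18.9% in WT, 18.8% in GILZ KO and 18.5% in GILZ TG, against 48.9%, 48.4% and 48.9%. Of the genes most like H2-Ab1 and Ciita, 0 of 5 were shared when group means were kept.

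Over all genes, DESeq2 called 79 in place of 12 in GILZ KO against untreated WT, 312 in place of 81 in GILZ TG against WT and 1218 in place of 623 in GILZ KO against GILZ TG, and after LPS 100 for 10, 274 for 56 and 715 for 316. limma on log2(TPM + 1) called 8, 41 and 268 and after LPS 17, 30 and 147. Ciita and H2-DMb2 were limited by depth.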
